A study of Mus musculus with 16 samples.

Results

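Class I myosins are single-headed motor proteins that bind actin through the head and membrane lipids through the tail. They use calmodulin as a light chain and link the actin cytoskeleton to the plasma membrane and to vesicles, in contrast to the conventional myosins that form the thick filaments of muscle. Myo1a is best known from the intestinal brush border, where it tethers microvillar actin bundles to the membrane, and it is not a typical gene of skeletal muscle. The genes described are the class I myosins Myo1a, Myo1c, Myo1d, Myo1e, Myo1f, Myo1g and Myo1h, 7 of the 24454 genes of the deposited table. They were chosen by the level of Myo1a, which was much higher in HSALR than in control muscle, so the genotype difference of Myo1a is given below as a description and without a test.

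Gene counts came from RNA-seq of the gastrocnemius of 16 mice aged 3 months, with 1 library per mouse. HSALR mice are a model of myotonic dystrophy type 1. They are homozygous for the LR20b transgene, in which the human skeletal actin gene carries a long CTG repeat, and the transgene is expressed in skeletal muscle only, so other tissues affected in the disease are not modelled. FVB/N mice, the background strain, were the controls and carry no transgene. There were 5 HSALR mice given vehicle, 5 HSALR mice given AICAR, 3 control mice given vehicle and 3 control mice given AICAR. AICAR, which activates AMP-activated protein kinase, was given at 500 mg/kg for 7 days. The question for these genes was how their levels differed between the genotypes and after AICAR.

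The libraries held 64890014 to 81987726 reads counted in genes (median 73021286). The human transgene has no row in the mouse table, so the genotype could not be checked by its own transcript. Markers of muscle fibres were abundant in each library, with a summed level of 8 genes between 130008 and 186611 normalized CPM, the gene counts scaled to library size by the TMM method. In 6 libraries the epidermal keratin Krt14 exceeded 1 normalized CPM. These were 4 of the 5 vehicle-treated HSALR mice (S452, S453, S458 and S459), the vehicle-treated control mouse S450 and the AICAR-treated control mouse S448. The summed level of 8 epidermal markers was between 27.8 and 280 in these 6 libraries and between 2.26 and 3.59 in the other 10. Every value given without these 6 libraries has S451 as the only vehicle-treated HSALR mouse, with its spread taken from the other groups. After vehicle, 4 of 4 endothelial markers (Pecam1, Cdh5, Kdr and Tek) were lower in HSALR muscle, by 0.47 to 0.59 on the log2 scale, with a summed level of 162 to 209.7 normalized CPM beside 246 to 272 in control muscle, and 2 of 4, Pecam1 and Cdh5, were lower after AICAR. Of all genes tested, 26.9% and 21.8% were called in these contrasts. Without the libraries with Krt14, 0 of 4 were called after vehicle, at log2 fold changes of -0.42 to -0.27, and 2 of 4 after AICAR. The part of endothelial cells in the myosin levels was not tested. In whole muscle, fewer cells of a type and less RNA per cell cannot be told apart. Tests used the quasi-likelihood method of edgeR in a model of all 16 libraries, and p-values were adjusted by the Benjamini-Hochberg method over the 15487 genes that passed the filter on low counts. An adjusted p under 0.05 was the threshold for a call. All 7 class I myosins passed the filter.

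Myo1a (Entrez 432516) lies on the plus strand of GRCm38 chr10:127703436-127720940 and has 27 exons in its coding transcript. No other annotated gene overlaps it. The RefSeq promoter window of 250 bases ends at the start of the RefSeq coding transcript, which lies 1820 bases inside the gene's span given above. The coding transcript of GENCODE starts 86 bases before that of RefSeq. The 164 bases of the window before both starts (GRCm38.p6, chr10:127705006-127705169, plus strand) are shown because Myo1a is the member whose level set HSALR muscle apart. Capitals mark the only E-box (CANNTG) of the window, the motif of basic helix-loop-helix factors such as the myogenic regulators.
Myo1a window: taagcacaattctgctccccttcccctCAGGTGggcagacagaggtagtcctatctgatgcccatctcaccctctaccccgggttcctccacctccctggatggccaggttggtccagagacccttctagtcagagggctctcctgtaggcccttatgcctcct
This E-box, CAGGTG, starts 223 bases before the RefSeq transcript start. On either strand, CANNTG was found in 66.2% of 32851 RefSeq promoter windows of this length, so it is a common feature. The letters CAGCTG, the E-box core of myogenic factors (in 13% of windows), TTTATG, the core of the intestinal CDX motif (10.8%), and TATAAA, the TATA box (12.4%), were not found in this window on either strand.

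Myo1a was barely counted in control muscle and well expressed in HSALR muscle. In vehicle-treated control mice it was at 0.341, 0.319 and 0.217 normalized CPM in S445, S446 and S450, from 24, 25 and 16 reads. In vehicle-treated HSALR mice it was at 22.4, 17.9, 18.04, 18.01 and 20.02 normalized CPM in S451, S452, S453, S458 and S459, from between 1217 and 1611 reads. Every HSALR mouse was thus far above every control mouse, and within each genotype the mice lay close together. The means were 19.3 ± 1.97 (SD, n = 5) and 0.29 ± 0.066 normalized CPM (SD, n = 3), and the fitted difference was 6.03 on the log2 scale (SE 0.26), or 65.5-fold. HSALR mouse S451, whose epidermal marker sum of 3.59 normalized CPM was the lowest of its group, had the highest Myo1a level. Without the 6 libraries with Krt14 the difference was 6.07.

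After AICAR, Myo1a was lower in HSALR muscle than after vehicle but still far above control. The AICAR-treated HSALR mice S454, S455, S460, S462 and S463 had 6.90, 6.12, 9.47, 4.37 and 5.32 normalized CPM, with a mean of 6.44 ± 1.94 (SD, n = 5). The AICAR-treated control mice S447, S448 and S449 had 0.228, 0.314 and 0.315 normalized CPM, with a mean of 0.29 ± 0.050 (SD, n = 3). The 3 levels of Myo1a, in control muscle with either treatment, in AICAR-treated HSALR muscle and in vehicle-treated HSALR muscle, did not overlap between mice. The genotype difference after AICAR was 4.48 on the log2 scale (SE 0.27), or 22.4-fold, again as a description.

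**Figure D1:**
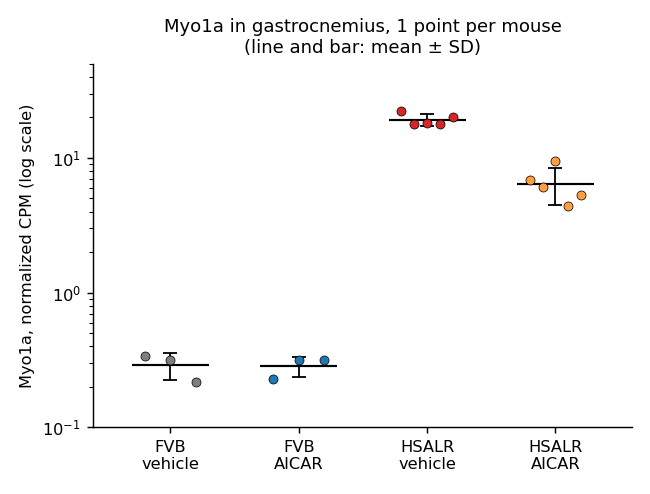
Myo1a level in normalized CPM (y axis, log scale) in the 4 groups (x axis), with a point for each mouse and the mean ± SD as line and bar. The control mice lie between 0.217 and 0.341, the AICAR-treated HSALR mice between 4.37 and 9.47 and the vehicle-treated HSALR mice between 17.9 and 22.4.

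The fall of Myo1a with AICAR in HSALR muscle was 2.99-fold, a log2 fold change of -1.58 (SE 0.16, edgeR quasi-likelihood test, adjusted p = 1.09e-05), and 5 of 5 AICAR-treated mice were below all vehicle-treated ones. The vehicle-treated HSALR mice are also part of the contrast that chose Myo1a, and a choice by high values in these mice favours a lower value in any group set against them, so the p-value and the separation of the mice are given as a description and support nothing by themselves. Leaving out any single mouse gave values between -1.76 and -1.47. No AICAR-treated HSALR library held Krt14 above 1 normalized CPM, the epidermal marker sum there was between 2.47 and 3.10, and 8 of 8 epidermal markers fell in this contrast, beside 26.6% of all genes called. Without the libraries with Krt14, which leaves S451 as the only vehicle-treated HSALR mouse, whose spread is taken from the other groups, the fall of Myo1a was -1.80 on the log2 scale (edgeR, adjusted p = 0.0097).

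In control muscle no change of Myo1a with AICAR was detected, with a log2 fold change of -0.03 (SE 0.34, 95% interval -0.69 to 0.63, edgeR, adjusted p = 0.97). The vehicle-treated control mice, with their low values, are also part of the contrast that chose Myo1a, so this result is given as a description. At 16 to 25 reads per library, a fall of the size seen in HSALR muscle lies outside the interval. That size rests on mice that also chose Myo1a, so no difference between the genotypes is read from this. The difference between the AICAR effects of the genotypes was -1.55 on the log2 scale (SE 0.37) and did not pass the threshold over all genes (edgeR, unadjusted p = 8.67e-04, adjusted p = 0.073). The vehicle-treated mice of both genotypes enter this difference and also the choice of Myo1a, which favours a negative value, so its p-values support nothing by themselves. The call changed with 1 mouse, the tool and the scaling. Without S460, which had the highest Myo1a level of the AICAR-treated HSALR mice, the difference was -1.73 (edgeR, adjusted p = 0.0072), and with DESeq2 it was -1.55 (adjusted p = 0.0039). Scaling to the gene Tbp gave -1.85 (edgeR, adjusted p = 0.031). With limma and voom it was -1.61 (adjusted p = 0.27).

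S460 also stood apart in the simple-epithelium keratins. Krt8 was at 39.0 normalized CPM in S460 and between 2.69 and 4.29 in the other 4 AICAR-treated HSALR mice. Krt18 was at 31.7 normalized CPM in S460 and between 2.36 and 5.58 in the others. Both keratins were higher in HSALR than in control muscle after vehicle, by 6.76 (SE 1.26, edgeR, adjusted p = 5.93e-04) and 6.25 (SE 0.97, adjusted p = 3.01e-04) on the log2 scale. Of the other simple-epithelium markers, Krt19, Epcam and Cdh1 were tested and none passed the threshold in that contrast. Thus 2 of 5 were called there, beside 26.9% of all genes. After AICAR, 2 of 5 were called higher in HSALR muscle, beside 21.8% of all genes, and none lower. With AICAR in HSALR mice, Epcam and Cdh1, which the epidermis also expresses, fell by 3.06 and 2.05 on the log2 scale (SE 1.05 and 0.53, edgeR, adjusted p = 0.042 and 0.011). These were 2 of the 5 tested, beside 26.6% of all genes called. With the libraries that held Krt14 left out, their log2 fold changes were 0.19 and 0.17 (adjusted p = 0.92 and 0.89), whereas the genotype differences of Krt8 and Krt18 after vehicle were then 7.35 and 6.73 (adjusted p = 0.043 and 0.033). The summed level of the 6 simple-epithelium markers was 2.83 to 5.48 and 1.89 to 7.26 normalized CPM in control muscle after vehicle and AICAR, and 22.5 to 68.9 and 6.12 to 72.2 in HSALR muscle. The part of these cells or transcripts in the Myo1a level was not tested.

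Myo1a is best known from the intestinal epithelium, but only 1 of 7 genes listed for that tissue could be tested. This gene passed the threshold in no contrast, beside 0.691% to 26.9% of all genes called, and with 1 gene nothing is read from this. Of the 7 listed, Cdx2, Fabp2 and Sis had no read in any library, Cdx1 had 1 read in all in vehicle-treated and 3 in AICAR-treated HSALR muscle, and only the lectin gene Lgals4 had enough counts to be tested. Lgals4, also expressed outside the gut, was at 1.21 ± 0.19 (SD, n = 3) normalized CPM in vehicle-treated control and 0.87 ± 0.18 (SD, n = 5) in vehicle-treated HSALR muscle. The summed intestinal level was 1.10 to 1.48 normalized CPM in vehicle-treated control mice and 0.680 to 1.17 in vehicle-treated HSALR mice. After AICAR it was 0.839 to 0.988 in control and 0.683 to 0.879 in HSALR mice.

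Of 11 brush border genes, 6 were tested. After vehicle, the actin nucleator Cobl and the scaffold gene Ush1c were higher in HSALR muscle by 0.63 (SE 0.08, edgeR, adjusted p = 3.57e-05) and 0.71 (SE 0.24, adjusted p = 0.043) on the log2 scale, and none was lower. These were 2 of 6, beside 26.9% of all genes. Among the mice without Krt14, Cobl was higher by 0.60 (edgeR, adjusted p = 0.034), and Ush1c differed by -0.07 (adjusted p = 0.94). After AICAR, none of the 6 differed past the threshold between the genotypes, beside 21.8% of all genes. AICAR raised the actin-bundling gene Espn in HSALR muscle by 1.39 (SE 0.20, edgeR, adjusted p = 2.24e-04) and in control muscle by 1.00 (SE 0.26, adjusted p = 0.020), and Cobl in control muscle by 0.43 (SE 0.08, adjusted p = 0.0044), while Myo1a fell in HSALR muscle. Eps8, which caps actin filaments, rose with AICAR in HSALR muscle by 0.32 (SE 0.07, edgeR, adjusted p = 0.0058). With AICAR, 2 of 6 were thus called in each genotype, beside 26.6% of all genes in HSALR and 13.2% in control muscle. Without the libraries with Krt14, none of these 4 rises with AICAR passed the threshold, at values close to those above for 3 of them. Espn was then at 1.32 in HSALR and 0.75 in control muscle (edgeR, adjusted p = 0.089 and 0.22), Cobl at 0.39 in control muscle (adjusted p = 0.087) and Eps8 at 0.31 in HSALR muscle (adjusted p = 0.25). Villin (Vil1), the defining gene of the brush border, had between 8 and 26 reads per group and was not tested. The summed brush border level was 60.5 to 64.8 normalized CPM in vehicle-treated control mice and between 74.1 and 90.5 in the other 3 groups. Cobl made up most of this sum, so the sum mostly follows that gene. Its means were 44.2 and 59.5 normalized CPM in control and 68.1 and 66.4 in HSALR muscle, after vehicle and AICAR.

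Among the 7 members, Myo1a was the only one past the threshold between the genotypes after vehicle. Of all genes tested, 26.9% passed in this contrast, and nothing is read from the count since the contrast chose the members. The log2 fold changes of the other 6 lay between -0.19 for Myo1d (SE 0.11) and 0.38 for Myo1g (SE 0.25). The median over the 7 was 0.00, beside 0.01 over all genes tested. Groups did not overlap for 1 member, Myo1a, and for 29.7% of all genes.

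After AICAR, Myo1e was the only one of the other 6 members that differed between the genotypes, and it was lower in HSALR muscle, beside 21.8% of all genes called. The choice of Myo1a fixed its own call in this contrast, and nothing is read from it. Groups did not overlap for Myo1a, Myo1e and Myo1f, and for 26.5% of all genes. The median log2 fold change was 0.03 over the members and 0.00 over all genes.

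With AICAR in HSALR muscle, 2 of the other 6 members changed, Myo1c, which rose, and Myo1e, which fell, beside 26.6% of all genes. Nothing is read from the call of Myo1a, for the reason given above, and neither of the other 2 was called without the libraries with Krt14. Groups did not overlap for 1 member, Myo1a, and for 17.7% of all genes. The median log2 fold change was 0.22 over the members and -0.02 over all genes. In the same contrast, 2 of 4 fibroblast markers (Pdgfra, Col1a1, Dcn and Lum) were called lower and none higher. Of the 4 endothelial markers, 1 was called higher and none lower. The part of these cells in the member levels was not tested. With AICAR in control muscle, 1 of 7 members changed, Myo1c, which rose, beside 13.2% of all genes. Groups did not overlap for that member alone among the 7 and for 33.1% of all genes, and the medians were 0.15 and -0.01. No member differed between the AICAR effects of the genotypes by edgeR's test, beside 0.691% of all genes. In that comparison, 2 members had an unadjusted p under 0.05 by edgeR's test, Myo1a and Myo1e, DESeq2 called 1, Myo1a, and limma with voom called none. No share over all genes is given for these counts, and nothing is read from them.

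**Figure D2:**
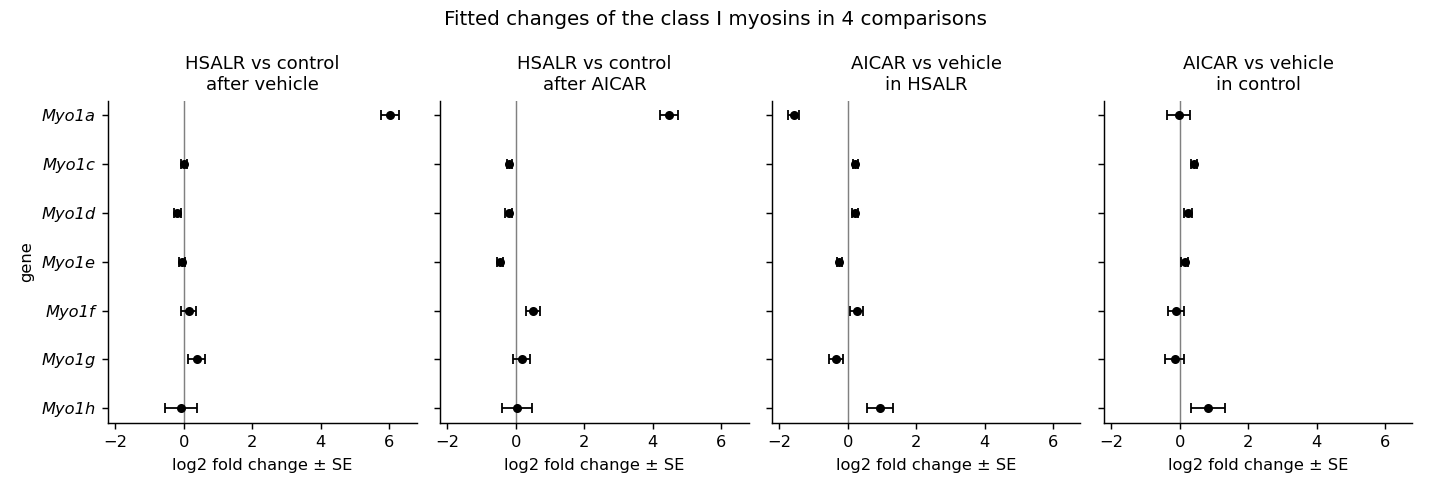
Log2 fold change ± SE (x axis) of the 7 class I myosins (y axis) in the 4 comparisons, from the edgeR fit of all 16 libraries. Myo1a stands at 6.03 and 4.48 in the genotype comparisons and at -1.58 for AICAR in HSALR muscle, while the other 6 lie between -0.45 and 0.94 in all 4 panels.

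Myo1c (Entrez 17913, GRCm38 chr11:75650519-75674643, plus strand) is broadly expressed and is known for carrying GLUT4 vesicles to the plasma membrane in response to insulin. It was the most abundant class I myosin per kb of transcript in all 4 groups. In vehicle-treated control mice S445, S446 and S450 it was at 68.0, 75.2 and 64.6 normalized CPM, and in vehicle-treated HSALR mice S451, S452, S453, S458 and S459 at 70.3, 67.2, 70.9, 76.4 and 62.5. The 2 genotypes overlapped throughout, with a fitted difference of 0.00 on the log2 scale (SE 0.08). After AICAR, control mice S447, S448 and S449 had 95.3, 92.5 and 89.1 normalized CPM. All 3 lay above every vehicle-treated control mouse. After AICAR, HSALR mice S454, S455, S460, S462 and S463 had 79.0, 82.1, 94.7, 79.7 and 71.1 normalized CPM. Their range overlapped that of vehicle-treated HSALR mice.

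Myo1c rose with AICAR in control muscle by 0.41 on the log2 scale (SE 0.09, edgeR, adjusted p = 0.0086), or 1.33-fold. It rose in HSALR muscle by 0.23 (SE 0.07, adjusted p = 0.029), or 1.17-fold. The 2 effects differed by -0.19 (SE 0.12, 95% interval -0.42 to 0.04, adjusted p = 0.48), so a difference between the genotypes was not shown. The rise in HSALR muscle did not pass the threshold when S455, S460 or S459 was left out (0.22, 0.17 and 0.19, edgeR, adjusted p = 0.054, 0.066 and 0.072), without the libraries with Krt14 (0.21, adjusted p = 0.39), or with upper-quartile scaling (0.20, adjusted p = 0.051) or scaling to the gene Tbp (0.13, adjusted p = 0.47). The rise in control muscle was 0.35 without those libraries (edgeR, adjusted p = 0.12). After AICAR the genotypes differed by -0.18 (SE 0.08, edgeR, adjusted p = 0.12), and by -0.24 without S460 (adjusted p = 0.025).

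Myo1d (Entrez 338367, GRCm38 chr11:80482126-80780055, minus strand) is a short-tailed class I myosin known for its part in left-right asymmetry of flies and vertebrates. It was at 11.3, 12.0 and 10.4 normalized CPM in vehicle-treated control mice S445, S446 and S450 and at 14.8, 13.8 and 11.2 in AICAR-treated control mice S447, S448 and S449. In HSALR mice it was at 10.3, 9.81, 9.65, 10.7 and 8.82 after vehicle (S451, S452, S453, S458 and S459) and at 11.7, 9.40, 12.5, 12.7 and 11.1 after AICAR (S454, S455, S460, S462 and S463). In both genotypes the vehicle and AICAR ranges overlapped. The log2 fold changes with AICAR were 0.24 in control (SE 0.12, edgeR, adjusted p = 0.21) and 0.22 in HSALR muscle (SE 0.09, adjusted p = 0.098). The latter reached 0.28 (adjusted p = 0.031) without S455, which had the lowest level of its group.

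Myo1e and Myo1f are the long-tailed class I myosins, with an SH3 domain at the end of the tail. Myo1e (Entrez 71602, GRCm38 chr9:70207350-70400067, plus strand) is known for its role in the podocytes of the kidney. It was at 11.4, 11.9 and 12.8 normalized CPM in vehicle-treated control mice S445, S446 and S450 and at 11.8, 15.0 and 13.3 in AICAR-treated control mice S447, S448 and S449. In vehicle-treated HSALR mice S451, S452, S453, S458 and S459 it was at 12.4, 10.6, 12.0, 11.7 and 11.4. The AICAR-treated HSALR mice S454, S455, S460, S462 and S463 had 9.42, 10.8, 10.6, 9.53 and 8.53. These 5 mice were below all AICAR-treated control mice, and the highest of them was above the lowest vehicle-treated HSALR mouse.

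After AICAR, Myo1e was lower in HSALR than in control muscle by 0.45 on the log2 scale (log2 fold change -0.45, SE 0.09, edgeR, adjusted p = 0.0025), or 1.37-fold. It passed the threshold under each alternative run, with adjusted p-values up to 0.047. With AICAR it fell in HSALR muscle by 0.25 (SE 0.08, edgeR, adjusted p = 0.030), a call that was lost when S454, S462, S463, S451 or S453 was left out (adjusted p = 0.069, 0.062, 0.075, 0.070 and 0.063) and without the libraries with Krt14 (log2 fold change -0.35, adjusted p = 0.16). The fall stayed about as large when single mice were left out, at -0.29 to -0.20. In control muscle the log2 fold change with AICAR was 0.15 (SE 0.10, edgeR, adjusted p = 0.36). The difference between the 2 effects was -0.39 (SE 0.13, edgeR, unadjusted p = 0.0073, adjusted p = 0.17).

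**Figure D3:**
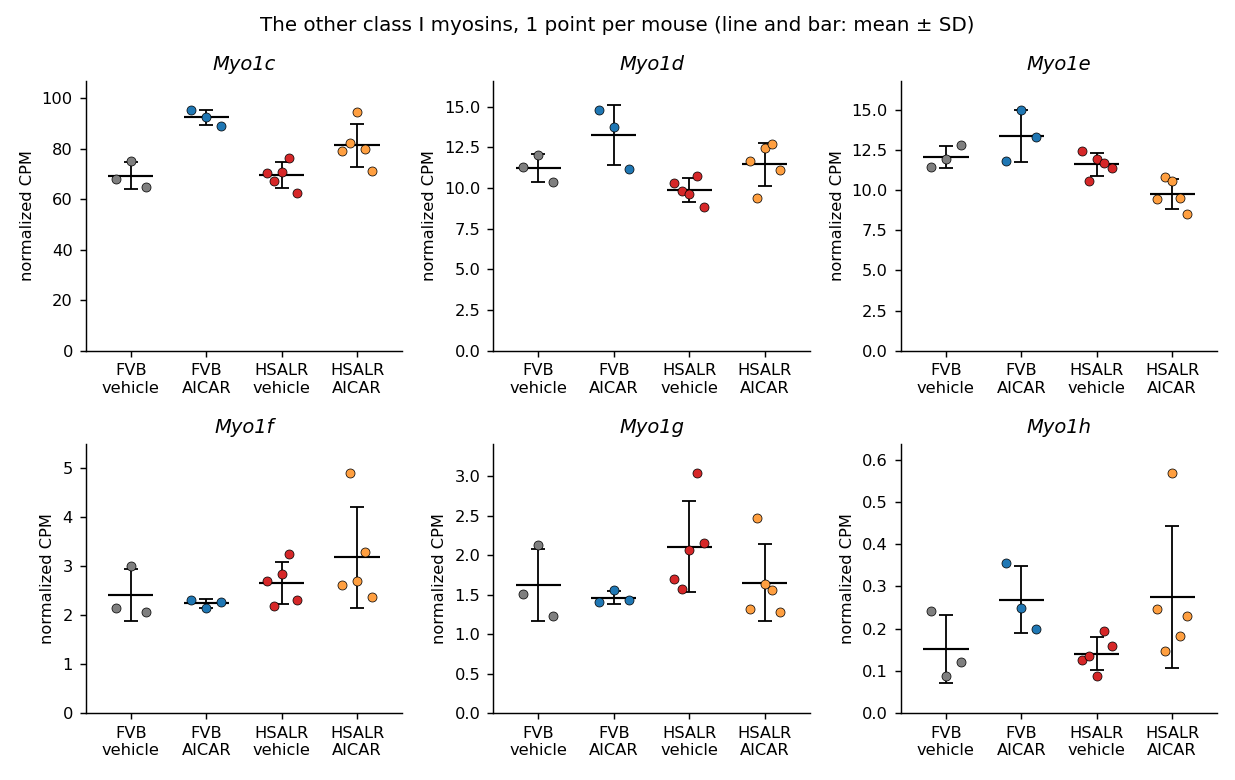
Levels of Myo1c, Myo1d, Myo1e, Myo1f, Myo1g and Myo1h in normalized CPM (y axis, linear from 0) in the 4 groups (x axis), with a point for each mouse and the mean ± SD as line and bar. Myo1c lies higher in all 3 AICAR-treated control mice (89.1 to 95.3) than in the 3 vehicle-treated ones (64.6 to 75.2). The highest mouse is S455 for Myo1f (4.90), S458 for Myo1g (3.05) and S460 for Myo1h (0.569).

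Myo1f (Entrez 17916, GRCm38 chr17:33555707-33607764, plus strand) and Myo1g (Entrez 246177, GRCm38 chr11:6506548-6520960, minus strand) are known mainly from blood cells, where Myo1f serves neutrophils and macrophages and Myo1g lymphocytes. In vehicle-treated control mice S445, S446 and S450, Myo1f was at 2.15, 3.01 and 2.07 normalized CPM. In vehicle-treated HSALR mice S451, S452, S453, S458 and S459 it was at 2.70, 2.19, 2.85, 3.24 and 2.32. These ranges overlapped. After AICAR it was at 2.30, 2.15 and 2.26 normalized CPM in control mice S447, S448 and S449. In HSALR mice S454, S455, S460, S462 and S463 it was at 2.61, 4.90, 2.70, 3.29 and 2.37 after AICAR, each above the AICAR-treated control mice. The difference of 0.51 on the log2 scale (SE 0.21) between these groups did not pass the threshold (edgeR, adjusted p = 0.11). It was 0.29 without S455.

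Myo1g was at 1.51, 2.13 and 1.24 normalized CPM in vehicle-treated and at 1.41, 1.56 and 1.43 in AICAR-treated control mice, in the same order of mice. In HSALR mice it was at 1.70, 1.58, 2.06, 3.05 and 2.16 after vehicle and at 1.32, 2.48, 1.64, 1.56 and 1.28 after AICAR. All groups overlapped, except that 5 of 5 vehicle-treated HSALR mice were above the AICAR-treated control mice, a pair that differs in both genotype and treatment and was not tested. With AICAR the log2 fold change was -0.35 in HSALR (SE 0.21, edgeR, adjusted p = 0.25) and -0.15 in control muscle (SE 0.28, adjusted p = 0.78).

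Leukocyte markers were high in some, but not all, of the mice with the highest Myo1f and Myo1g levels. The summed level of 8 markers (Ptprc, Csf1r, Cd68, Adgre1, Itgam, Cd14, Cd3e and Cd79a) was 52.1 to 71.5 normalized CPM in vehicle-treated and 59.3 to 69.0 in AICAR-treated control mice, and 69.2 to 83.8 and 63.7 to 98.7 in HSALR mice. S455, with the highest Myo1f level of all 16 mice, had the highest sum, 98.7, and the highest level of the pan-leukocyte gene Ptprc, 10.7. S446, with the highest Myo1f and Myo1g levels of the vehicle-treated control mice, had the highest sum of that group, 71.5. S458, with the highest Myo1g level of all, had 83.8. In contrast, S462, with the second highest Myo1f level of all, had a sum of 71.3, the median of its group. S451 and S460 had sums of 83.5 and 82.1, with Myo1f at 2.70 in both and Myo1g at 1.70 and 1.64. Csf1r was the largest part of the sum in each mouse, at 50.1 normalized CPM in S451 and 43.5 in S460. The group means of Cd3e and Cd79a were at most 0.113 and 0.076, so the sum hardly reflects these genes. Ptprc in S451, at 4.76, was the lowest of its group. Of the 7 tested markers, 2 were called between the genotypes after vehicle, beside 26.9% of all genes. These were the macrophage genes Csf1r and Cd68, higher in HSALR muscle by 0.47 (SE 0.13, edgeR, adjusted p = 0.015) and 0.77 (SE 0.19, adjusted p = 0.0094) on the log2 scale. The other 5 lay between -0.09 for Ptprc (SE 0.21, edgeR, adjusted p = 0.79) and 0.74 for Cd3e (SE 0.78, adjusted p = 0.52). Adgre1, also a macrophage gene, differed by 0.09 (SE 0.21, edgeR, adjusted p = 0.79). Among the mice without Krt14, with S451 alone as the vehicle-treated HSALR mouse, Cd68 was higher by 1.24 (edgeR, adjusted p = 0.040) and Csf1r differed by 0.56 (adjusted p = 0.24). S451 had the highest Cd68 level of its group, 12.5 normalized CPM beside 8.02 to 10.1. The part of leukocytes in the Myo1f and Myo1g levels was not tested.

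**Figure D4:**
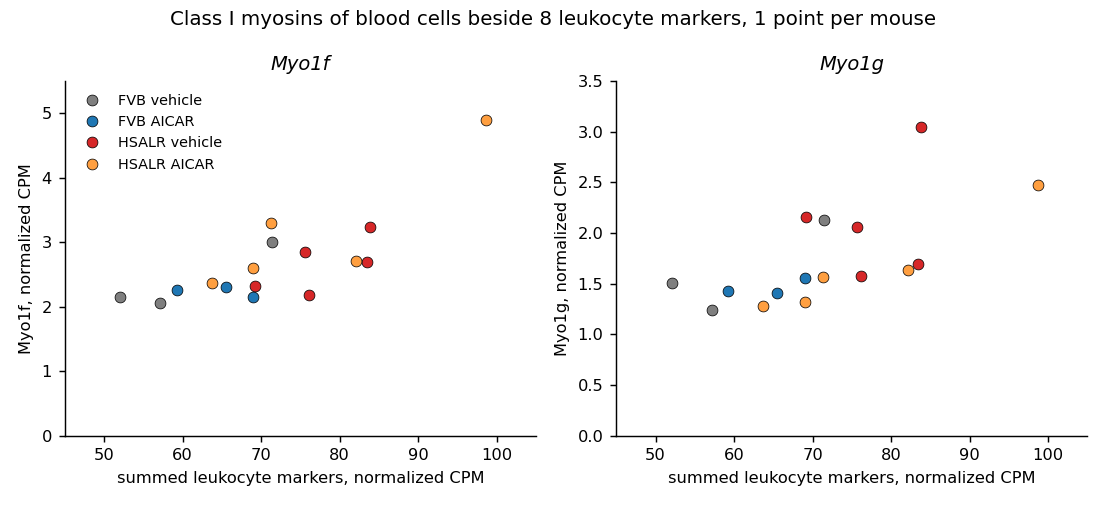
Level of Myo1f (left) and Myo1g (right) in normalized CPM (y axes) against the summed level of 8 leukocyte markers in normalized CPM (x axes), with a point for each of the 16 mice coloured by group. The point at the far right is S455, at a sum of 98.7 with Myo1f at 4.90 and Myo1g at 2.48, and the highest Myo1g point is S458 at 3.05. Csf1r is the largest part of the sum in each mouse.

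Myo1h (Entrez 231646, GRCm38 chr5:114289253-114364576, plus strand) is little studied and was near the limit of detection, with 6 to 40 reads per library. It shares 1530 of its 5927 exon bases with Kctd10 on the opposite strand, and whether strand was used in counting is not stated, so reads of the 2 genes may not be told apart. It was at 0.242, 0.089 and 0.122 normalized CPM in vehicle-treated and 0.356, 0.249 and 0.201 in AICAR-treated control mice. In HSALR mice it was at 0.125, 0.136, 0.089, 0.195 and 0.160 after vehicle and at 0.247, 0.148, 0.569, 0.182 and 0.229 after AICAR, with the highest value in S460. S460 also had the highest Kctd10 level of the AICAR-treated HSALR mice, 34.3 normalized CPM, beside 22.5 to 25.6 in the others. The log2 fold changes of Myo1h with AICAR, 0.94 in HSALR (SE 0.39, edgeR, adjusted p = 0.085) and 0.83 in control muscle (SE 0.50, adjusted p = 0.30), did not pass the threshold. When single mice were left out, the value in HSALR muscle was 0.50 to 1.10.

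Divided by the deposited transcript lengths, the levels can be compared between genes. In vehicle-treated control muscle the order of the 7 was Myo1c at 12.3 normalized CPM per kb, Myo1e at 2.44, Myo1d at 2.10, Myo1f at 0.63, Myo1g at 0.49, Myo1a at 0.087 and Myo1h at 0.033. Of these neighbours, Myo1f and Myo1g were the only pair whose mice overlapped. In vehicle-treated HSALR muscle Myo1a stood second, at 5.75 normalized CPM per kb, and its lowest mouse, 5.33, was above the highest mouse of Myo1e, 2.51. After AICAR in HSALR muscle, Myo1a at 1.92 per kb overlapped with Myo1d at 2.14 and Myo1e at 1.98.

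As a share of the summed per-kb level of the 7 genes, Myo1a was 0.48% ± 0.098 (SD, n = 3) in vehicle-treated and 0.38% ± 0.074 (SD, n = 3) in AICAR-treated control muscle. It was 24.4% ± 2.44 (SD, n = 5) in vehicle-treated and 8.70% ± 1.85 (SD, n = 5) in AICAR-treated HSALR muscle. The share of Myo1c after vehicle and AICAR was 68.0% and 72.03% in control and 52.1% and 66.0% in HSALR muscle. The sum was 18.03 ± 1.33 normalized CPM per kb in vehicle-treated and 22.7 ± 0.85 in AICAR-treated control mice (SD, n = 3 each), and 23.6 ± 1.34 in vehicle-treated and 21.8 ± 2.32 in AICAR-treated HSALR mice (SD, n = 5 each). The sums of AICAR-treated control mice, 21.7 to 23.2, lay near those of vehicle-treated HSALR mice, 22.3 to 25.1, with different shares of Myo1a and Myo1c.

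**Figure D5:**
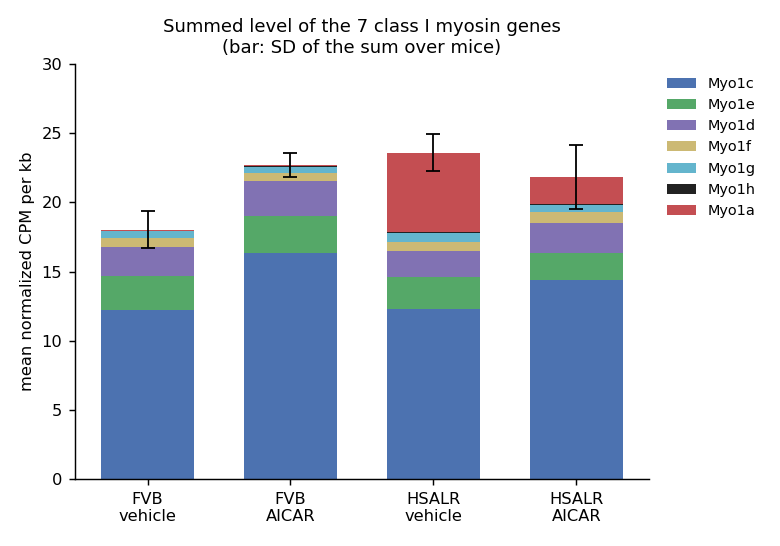
Mean level per kb of transcript, in normalized CPM per kb (y axis), of the 7 class I myosin genes stacked for each group (x axis), with the SD of the sum over mice as a bar. Myo1a makes up 24.4% of the stack in vehicle-treated HSALR muscle and 8.70% after AICAR, and 0.48% and 0.38% in the control groups.

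Of 16 other unconventional myosins analysed, 11 were tested. After vehicle, 4 were higher and 2 lower in HSALR muscle, beside 26.9% of all genes called. The largest of these were the class V cargo motors. Myo5b and Myo5a were higher by 1.82 (SE 0.39, edgeR, adjusted p = 0.0041) and 0.65 (SE 0.16, adjusted p = 0.0082) on the log2 scale, and Myo5c was lower by 0.46 (log2 fold change -0.46, SE 0.15, adjusted p = 0.032).

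After AICAR, Myo5a was the only one of the 11 that differed between the genotypes, beside 21.8% of all genes, and was higher in HSALR muscle by 0.94 (SE 0.16, edgeR, adjusted p = 8.99e-04). AICAR changed 4 of the 11 in HSALR muscle, 3 upwards and 1 downwards, beside 26.6% of all genes. Myo5b fell by 1.19 on the log2 scale (SE 0.33, edgeR, adjusted p = 0.015), and Myo5a and Myo9a rose by 1.08 (SE 0.14, adjusted p = 7.48e-05) and 0.42 (SE 0.11, adjusted p = 0.0093). Myo5b was thus called higher with the genotype and lower with AICAR in HSALR muscle, the directions seen for Myo1a. Both contrasts share the vehicle-treated HSALR mice, and picking a gene that is high in them favours a fall against them. The pair of directions therefore supports nothing by itself. It was at 0.768, 1.06 and 1.79 normalized CPM in vehicle-treated and 0.768, 1.82 and 0.888 in AICAR-treated control mice. In HSALR mice it was at 7.65, 3.40, 4.30, 2.38 and 3.65 after vehicle and at 1.97, 1.24, 2.80, 1.69 and 1.64 after AICAR, with the highest values in S451 and S460, as for Myo1a. Both control mice with Krt14, S450 and S448, had the highest Myo5b level of their group. When the libraries with Krt14 were left out, the genotype difference of Myo5b after vehicle was 3.05 (edgeR, adjusted p = 0.0021) and its fall with AICAR in HSALR muscle -2.04 on the log2 scale (adjusted p = 0.0078). Both values rest on S451 as the only vehicle-treated HSALR mouse left, which had the highest Myo5b level of its group, 7.65 beside 2.38 to 4.30. In control muscle AICAR changed 1 of the 11, beside 13.2% of all genes, Myo5a, which rose by 0.78 (SE 0.18, edgeR, adjusted p = 0.0098). Some calls of the other unconventional myosins were lost without the libraries with Krt14, where fewer mice were compared. No count of calls is read from that fit. The values of the lost calls of Myo5a and Myo5c were about as large or larger. Myo5a was then at 0.68 between the genotypes after vehicle (edgeR, adjusted p = 0.26), at 1.07 with AICAR in HSALR (adjusted p = 0.071) and at 0.82 in control muscle (adjusted p = 0.10), and Myo5c at -0.73 between the genotypes after vehicle (adjusted p = 0.10). Myo9a was at 0.23 with AICAR in HSALR muscle (edgeR, adjusted p = 0.47).

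Calm2 and Calm3 encode calmodulin, the light chain of class I myosins, which also serves many other proteins. Calm3 was lower in HSALR than in control muscle after vehicle by 0.43 on the log2 scale (log2 fold change -0.43, SE 0.08, edgeR, adjusted p = 5.87e-04). Calm2 fell with AICAR in HSALR muscle by 0.63 (SE 0.11, edgeR, adjusted p = 8.96e-04). Neither was called without the libraries with Krt14, with values of -0.52 for Calm3 (edgeR, adjusted p = 0.065) and -0.50 for Calm2 (adjusted p = 0.20) in the same contrasts.

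None of the tested genes nearest to Myo1a on chromosome 10 was called between the genotypes, beside 26.9% of all genes after vehicle and 21.8% after AICAR, and with 5 genes nothing is read from this count. Nemp1, whose end lies 2386 bases before Myo1a, differed by -0.22 after vehicle on the log2 scale (SE 0.10, edgeR, adjusted p = 0.14). Tac2, 3537 bases after it, had no read in control muscle, 18 reads in all in vehicle-treated and 6 in AICAR-treated HSALR muscle, and was not tested. Of the 5 tested among the 3 nearest genes on each side (Nemp1, 1700012D01Rik, Nab2, Zbtb39 and Gpr182), this held with either treatment. After vehicle, 1700012D01Rik at 0.66 (SE 0.25, edgeR, adjusted p = 0.065) and Zbtb39 at -0.21 (SE 0.08, adjusted p = 0.053) came near the threshold, with groups that did not overlap. With AICAR in HSALR muscle, Gpr182 was the only one of the 5 called, beside 26.6% of all genes, and rose by 0.75 (SE 0.25, edgeR, adjusted p = 0.040). It was at 0.42 without the libraries with Krt14 (edgeR, adjusted p = 0.51).

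The genes whose levels followed Myo1a most closely over the 16 mice were found by Pearson's r of log2(normalized CPM + 0.1) among 13000 genes with a mean count of at least 50. They were Arl6ip5 (0.989), Fam171b (0.983), Eda2r (0.980), Serpinb1c (0.980), Ccdc192 (0.979), Galnt7 (0.976), Camk2n2, Morn2, Hsf2 and Slc23a3 (each 0.975). The points share the large step between the genotypes, so these values mostly describe that step and are given without a test. Among these 10, the nearest in the size of the step was Ccdc192, with mean levels of 0.48 and 0.29 normalized CPM in control and 10.3 and 4.83 in HSALR muscle, after vehicle and AICAR. Eda2r, a receptor of the tumour necrosis factor family, had 26.0 and 20.4 in control and 204 and 102 in HSALR muscle. Arl6ip5, the most alike by r, had 165 and 169 in control and 337 and 269 in HSALR muscle, a far smaller step than that of Myo1a.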

How the data were processed

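Gastrocnemius muscles were powdered, total RNA was extracted from a portion and stranded mRNA libraries were sequenced as single-end reads. The authors mapped the reads to mm10 with STAR 2.5.2a, kept 1 location for reads with equally good ones, counted reads starting in any exon of a RefSeq gene with QuasR, and deposited these raw counts with a gene length. Use of strand in counting is not given in the sources used here. mm10 is the GRCm38 assembly.

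Of 24454 Entrez identifiers, 24374 matched a RefSeq symbol (GRCm38.p6). Promoter windows were those of RefSeq, and exons and overlaps were taken from GENCODE. The analysis used edgeR 4.0.16 in R 4.3.3, with TMM scaling, filterByExpr over the 4 groups, glmQLFit and glmQLFTest on 16 libraries with 1 mean per group. Intervals are 1.96 SE on either side. Contrasts were genotype within each treatment, AICAR against vehicle within each genotype, and the difference of the AICAR effects. The contrasts share groups of mice.

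The class I myosins and the gene lists were chosen with earlier results of these data known. Named were the members, the calmodulin genes, the genes of the other lists that stand beside a result, the 3 other unconventional myosins with the largest changes among those called per contrast, the 10 genes most like Myo1a and its 3 nearest genes on each side. Results for some genes are not reported here. Labels name a separate mouse for each library.

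The alternatives were DESeq2 1.42.0, limma 3.58.1 with voom, no filter on low counts, scaling by RLE, upper quartile or the gene Tbp, only the 2 groups compared, leaving out each mouse, and leaving out the libraries with Krt14. The last was also applied to the comparison lists, a choice made after seeing the data. The scripts were tested on simulated data.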

Additional observations from a re-analysis of the deposited data

Results flagged for a closer look

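In a group of 5 mice, a sample whose gap to its nearest neighbour exceeds Dixon's limit was singled out. Of 14 groups of 5 (7 genes in both HSALR groups), 1 met this rule, and chance alone gives about 1 in 20. Myo1h was at 0.569 normalized CPM in the AICAR-treated HSALR mouse S460, from 40 reads, beside 0.148 to 0.247 in the other 4 mice.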

How the results depend on the processing

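Of 833 values of the members' log2 fold changes under the alternatives, 767 kept their sign and, where tested, their side of the threshold, 19 crossed the threshold and 47 changed sign, none of the latter for a change called above. The genotype difference of Myo1a after vehicle was 5.86 to 6.15 when single mice were left out and 6.02 to 6.31 otherwise. Its fall with AICAR in HSALR muscle was -1.80 to -1.47. Each run of that fall used vehicle-treated HSALR mice that also chose Myo1a, so nothing is read from its calls. Scaling to Tbp, which itself was lower in HSALR muscle after vehicle by 0.27 on the log2 scale, moved the median of all genes to 0.28 between the genotypes after vehicle, to 0.19 and -0.13 with AICAR in control and HSALR muscle and to -0.32 for the difference of the AICAR effects. For that difference it called 2 members, Myo1a (-1.85, adjusted p = 0.031) and Myo1e (-0.70, adjusted p = 0.044), DESeq2 called 1 (Myo1a, -1.55), and leaving out single mice called 0 to 1 with Myo1a at -1.73 to -1.38. Without the libraries with Krt14, the count of called members was 1 with AICAR in HSALR muscle and 0 in control muscle, where fewer mice were compared.

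Of the changes of sign, 18 were between the genotypes after vehicle. There Myo1c was -0.045 to 0.067 without single mice and -0.033 to 0.26 otherwise, Myo1h -0.35 to 0.42 and -0.38 to 0.21, Myo1d 0.076 and Myo1e 0.22 with Tbp, and Myo1e 0.080 and Myo1g -0.11 without the libraries with Krt14. Changes of sign for AICAR in control muscle were to 0.16 for Myo1a, 0.077 for Myo1f and 0.028 for Myo1g with Tbp, and leaving out single mice gave -0.20 to 0.10, -0.21 to 0.087 and -0.31 to 0.096 for these genes. Between the genotypes after AICAR, Myo1h was -0.11 with limma, -0.024 without the libraries with Krt14 and -0.41 to 0.28 without single mice, and Myo1g -0.016 to 0.25. For the difference of the AICAR effects, Myo1d was 0.0022 with upper-quartile scaling, 0.0084 without the libraries with Krt14 and -0.13 to 0.065 without single mice, Myo1g was 0.33 without those libraries, and Myo1h was -0.20 with Tbp, -0.12 with limma and -0.39 to 0.38 without single mice. The cause was not tested. The 16 to 25 reads of Myo1a in control libraries and 6 to 40 of Myo1h limit their precision. No paired analysis was possible because mice of different groups share no identifier.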
